A study of Astyanax mexicanus with 26 samples.

Results

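In adult liver of the Mexican tetra, *Astyanax mexicanus*, 12443 stretches of the genome carried a peak of H3K27me3 in surface fish, none in the cave fish of Pachón or Tinaja, and no peak of H3K4me3 or H3K27ac in any of the 3 morphs. They were chosen from the deposited peak lists. H3K27me3 peaks that overlapped or touched across morphs were joined, which gave 146107 regions, and those with a surface peak, no cave peak and no peak of either active mark were kept. The members thus made up 8.52% of all H3K27me3 regions. Membership was read from the lists themselves, so the presence and absence of peaks described here is how the regions were picked and not a result.

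H3K27me3, trimethylation of lysine 27 of histone H3, is written by Polycomb repressive complex 2 through its EZH subunits and is bound by complexes of the Polycomb repressive complex 1 family. It is known for holding developmental regulators and genes of other lineages silent in differentiated tissue, where it often forms broad domains over CpG-rich promoters. H3K4me3 marks promoters, and H3K27ac marks active promoters and enhancers. A region with H3K27me3 and neither of the others is therefore commonly read as Polycomb chromatin away from active or bivalent elements.

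The samples were whole livers of adult surface fish, the river form, and of the Pachón and Tinaja cave forms, with no treatment named in the labels. Each immunoprecipitation used 200000 cells and 1 µg of antibody and was sequenced as single reads of 50 bp. H3K27me3 had 2 libraries per morph, all of library number 2399. H3K4me3 and H3K27ac had 2 libraries per morph, or 3 in Tinaja, from other library numbers. For these marks surface shared no library number with either cave, while Pachón and Tinaja had a library number in common. Differences between the active lists of surface and of the caves can therefore not be told from differences of library number. The labels do not say whether a library came from 1 fish or from several.

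Each morph and mark had 1 peak list over all its libraries, so the spread between replicates is unknown and no test between morphs was made. Intervals below are exact (Clopper-Pearson) 95% binomial intervals for shares and order-statistic intervals for medians, and they cover counting error only. Read depth is unknown from the lists, and a missing peak is a peak not listed, not a mark shown to be absent. The H3K27me3 lists were of nearly equal length, at 97948 peaks for surface, 98198 for Pachón and 99370 for Tinaja. The active lists were not: H3K4me3 had 56323, 64432 and 136219 peaks in the same order, and H3K27ac had 70089, 93527 and 117125. The lists name 25 placed chromosomes and 2103 unplaced scaffolds and no genes, and the gene table at hand is of another build, so neither genes nor liver markers could be assigned. Positions are given as in the lists, 1-based, and their genome build is not named by the labels or files.

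Surface fish had about as many such regions as each cave morph. Pachón alone held 11795 regions without an active mark, 8.07% of all H3K27me3 regions, and Tinaja alone held 12702, or 8.69%. The surface number was 1.02 times the mean of the 2 (interval 0.994 to 1.04). Both caves together, without surface, held 7309 such regions, and all 3 morphs held 13317, or 9.11%. Bare of active marks were 62.0% of the 20057 regions of surface alone (61.4 to 62.7), against 66.9% in Pachón alone (66.2 to 67.6) and 66.7% in Tinaja alone (66.0 to 67.4). In regions shared by all morphs the share was 25.6% (25.3 to 26.0). Regions of a single morph were thus the ones most often listed without H3K4me3 or H3K27ac, surface slightly less often than either cave. Regions of all morphs were also wider, with medians of 473 against 309 bp for surface alone without active marks, and the part of width was not tested. With active marks of the same morph only, the shares were 84.1% in surface, 84.5% in Pachón and 69.6% in Tinaja, so the order of surface and Tinaja depended on the rule.

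**Figure D1:**
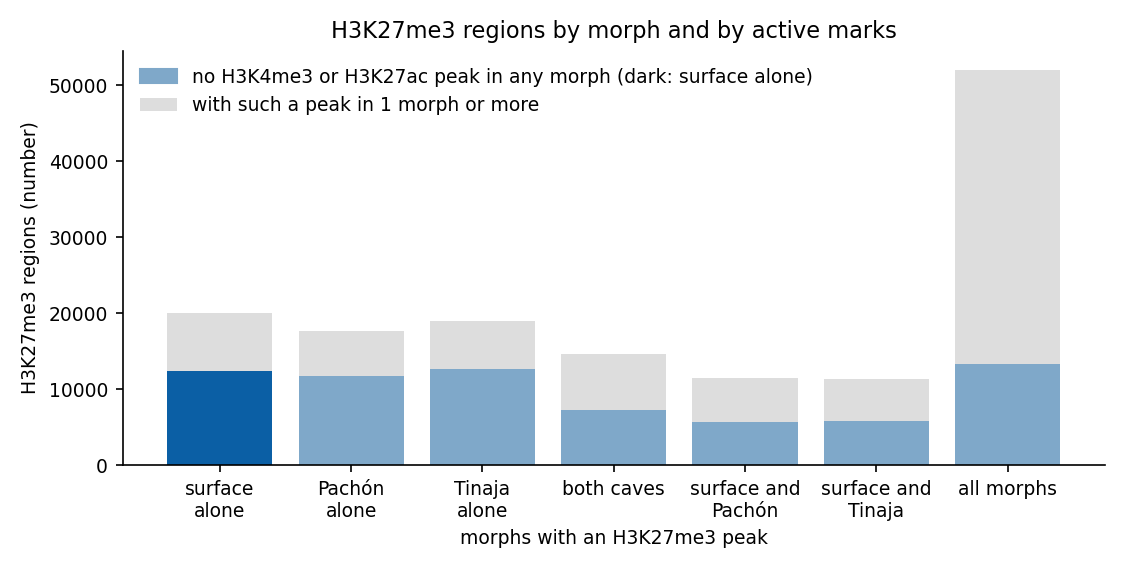
Number of H3K27me3 regions (vertical axis) by the morphs that carry a peak (horizontal axis), divided into regions with no H3K4me3 or H3K27ac peak in any morph (blue, the surface members in dark blue) and regions with such a peak (grey). The dark bar of 12443 stands level with the blue bars of Pachón alone and Tinaja alone, and the bar of all morphs is mostly grey.

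Of the 7614 regions of surface alone that did carry an active mark, most met it in Tinaja. A Tinaja H3K4me3 peak lay on 4828 regions of surface alone (24.1%) and a Tinaja H3K27ac peak on 3461 (17.3%). Pachón peaks lay on 1979 (H3K4me3) and 2431 (H3K27ac), and surface peaks on 2261 and 1688. Tinaja H3K4me3 peaks were about as frequent on surface alone as on the single-cave classes, and less frequent than on regions of all morphs. They lay on 23.6% of Pachón alone, 24.4% of Tinaja alone and 66.9% of all morphs. For Tinaja H3K27ac these shares were 14.7%, 13.9% and 33.7%, so the 17.3% of surface alone lay above both single-cave classes and below all morphs. In 4419 cases, 22.0% of the regions of surface alone, the active mark was listed in a cave and not in surface. The same held for 23.8% of Pachón alone, 25.9% of Tinaja alone and 46.2% of all morphs, so the share was not raised in surface alone. In 827 (4.12%) it was listed in surface and in neither cave, against 0.800%, 0.525% and 0.736% of those classes. It was so in 3.04% of regions of surface and Pachón and in 0.973% of regions of surface and Tinaja. The Tinaja active lists are the longest of the series, and their part in the number of Tinaja overlaps was not tested. When only the active marks of the same morph were allowed to remove a region, surface kept 16862 regions and stood at 1.199 times the mean of the 2 caves, with 14892 in Pachón and 13246 in Tinaja.

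Few members sat at the edge of the rule. A cave H3K27me3 peak lay within 50 bp of 47 members, whose median width was 348 bp. Just outside the rule, 7 of 24788 regions without active marks joined surface and cave peaks that shared 50 bp or less, with a median width of 877 bp. For active marks, 37 members had such a peak within 50 bp (median width 363 bp), and 25 regions of surface alone were left out for sharing 50 bp or less with one (362 bp).

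The members were narrow. Each of the 12443 was made of exactly 1 surface peak. A region without cave peaks can hold more only where surface peaks overlap or touch, so this comes from the rule and is not a trait. Together the members made up 12.7% of the surface H3K27me3 peaks but 8.14% of the bases that the surface list covers, 4.20 of 51.6 Mb. Their median width was 309 bp (307 to 311), and the middle 50% ran from 267 to 372 bp, close to the narrowest listed width of 200 bp. Regions without active marks had medians of 307 bp in Pachón alone and 306 bp in Tinaja alone, 389 bp in both caves and 473 bp in all morphs. A width of 500 bp or more was reached by 7.65% of the members, against 43.5% of the regions of all morphs. In this respect the surface members lay with the other single-morph regions and apart from the shared ones. Merging can only widen a shared region, so the gap to the shared classes is in part built in.

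The share of members fell steadily along the surface list when its peaks were ordered by width. A wider peak has more room to overlap a peak of another list, which the rule bars. The fall is therefore in part built in, and how large that part is was not tested. When the list was divided by width into 10 parts of about equal number, 35.0% of the peaks in the narrowest part, 200 to 271 bp, were members (34.1 to 36.0). In the middle of the list, 371 to 409 bp, the share was 10.8%. In the widest part, 896 bp and above, 55 peaks were members, or 0.561% (0.423 to 0.729). The Pachón list ran from 34.1% to 0.346% (34 peaks) and the Tinaja list from 37.9% to 0.171% (17 peaks) for their own single-morph regions. The 3 curves had a like course, with Tinaja the highest in the narrowest part and surface the highest in the widest ones. In part 8 surface gave 4.53% (4.13 to 4.97), against 3.39% (3.04 to 3.77) in Pachón and 3.02% in Tinaja. In part 9 it gave 2.23% (1.94 to 2.54), against 1.62% (1.38 to 1.89) and 1.43%. In the widest part the intervals of surface and Pachón meet.

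**Figure D2:**
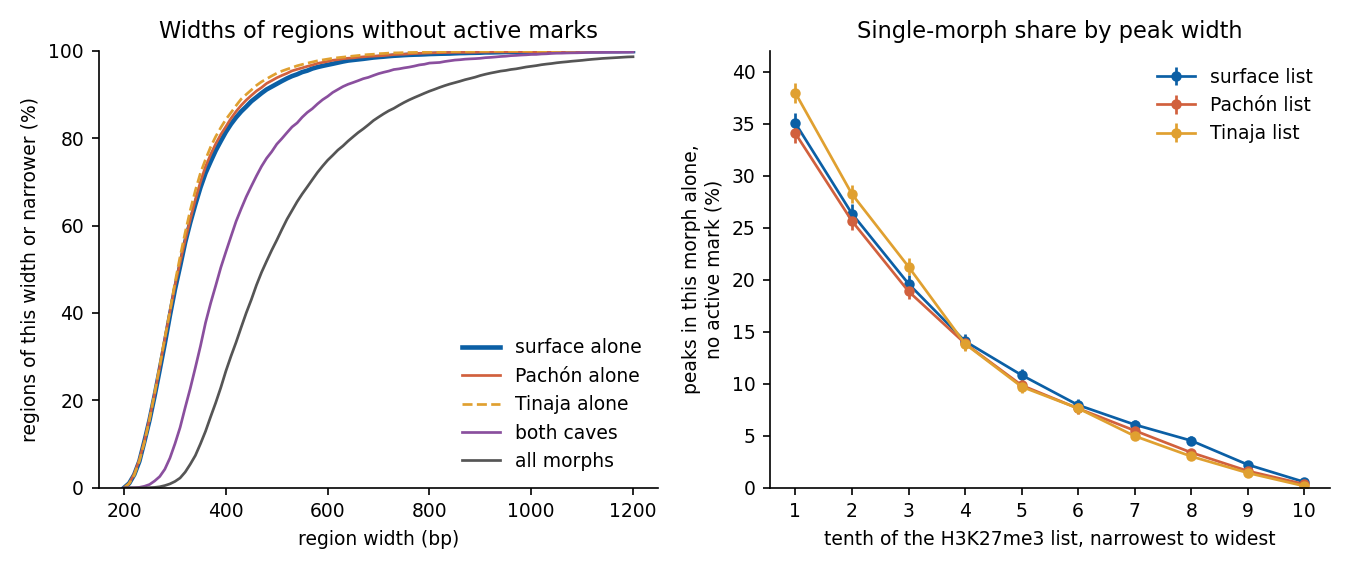
Left, cumulative share of regions without active marks (vertical axis, %) by region width (horizontal axis, bp) for 5 sets named by the morphs with an H3K27me3 peak. Right, share of the H3K27me3 peaks of each morph that lie in that morph alone and without active marks (vertical axis, %, bars are 95% binomial intervals) by width, in 10 parts of the list from narrowest to widest (horizontal axis); the 3 single-morph curves lie together, and the surface curve falls from 35.0% to 0.561%.

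Wide members were rare: 31 of the 12443 reached 1 kb. The widest, 3134 bp, lay on an unplaced scaffold, 9033 bp from the nearest cave H3K27me3 peak and 2467 bp from the nearest active peak of surface. On placed chromosomes the widest was chr3:43814759-43816242, 1484 bp, with a surface H3K4me3 peak 687 bp away and a cave H3K27me3 peak 1350 bp away. The next was chr25:23795160-23796384, 1225 bp, which was more isolated: the nearest cave H3K27me3 peak was 14616 bp away and the nearest active peak of any morph 3440 bp. The third, chr24:29030622-29031840, 1219 bp, lay 8430 bp from cave H3K27me3 and 2685 bp from surface H3K4me3, while the nearest surface H3K27ac was 94963 bp away. The remaining ones of the 10 widest measured 1044 to 1203 bp, with 3 of them on chromosome 15, and 434 to 3817 bp separated them from cave H3K27me3.

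The distance to cave H3K27me3 was also taken for all members. The median distance from a member to the nearest H3K27me3 peak of either cave was 2737 bp (2671 to 2804). A cave peak lay within 1 kb of 22.3% of members (21.6 to 23.1), within 5 kb of 68.3% and within 10 kb of 85.8%. The 2 caves contributed alike, with a Pachón peak within 1 kb of 17.4% and a Tinaja peak within 1 kb of 16.6%. These distances show no special closeness. The median gap from a member to the nearest H3K27me3 region of any class was 2004 bp, against 1838 bp among all H3K27me3 regions. Pachón alone and Tinaja alone gave 22.5% and 21.8% within 1 kb of H3K27me3 of the other morphs, with medians of 2818 and 2642 bp. The distance of surface members from the H3K27me3 of other morphs was thus between those of the single-cave sets, with intervals of the medians that meet.

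Members lay beside each other more often than their share of regions. Of the members with a further H3K27me3 region downstream on the same sequence, the next region was also a member in 13.4% (12.8 to 14.1), against 8.52% of all regions, a ratio of 1.58. The ratio was 1.76 for Pachón alone, 1.51 for Tinaja alone and 1.90 for all morphs, so the surface ratio lay between those of the single-cave sets. The region nearest to a member was of surface alone, active marks allowed, in 21.2% of cases (20.4 to 21.9), against 13.7% of all regions. It was of Pachón alone in 10.4%, of Tinaja alone in 11.4% and of both caves in 7.83%, against 12.1%, 13.0% and 9.98% of all regions. Next to a member, a region of surface alone was thus more frequent, and each class of the caves without surface less frequent, than among all regions. The single-cave sets also lay next to regions of their own morph, in 19.4% (Pachón alone) and 17.8% (Tinaja alone) of cases. In addition, the region nearest to one of Pachón alone was of both caves in 12.2% and the region nearest to one of Tinaja alone in 12.01%, both above the 9.98% of all regions. The members in turn were nearest to regions of surface and Pachón in 9.22%, above the 7.86% of all regions. For surface and Tinaja this was 8.21% (7.73 to 8.70), against 7.81%. Each single-cave set also stood below all regions for the pair without its own morph. Pachón alone gave 5.72% for surface and Tinaja, and Tinaja alone 6.22% for surface and Pachón. The 3 single-morph sets were thus alike in the pairs of morphs. They were less alike in the single-morph classes. Pachón alone lay next to Tinaja alone in 14.1%, and Tinaja alone next to Pachón alone in 12.7%, above the 13.0% and 12.1% of all regions. Next to surface alone they lay in 10.4% and 10.8%, below the 13.7% of all regions. The members stood below all regions for both single-cave classes. The region nearest to a member carried an active mark in 46.3% of cases, against 42.6% for Pachón alone, 41.9% for Tinaja alone and 52.7% of all regions.

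Most members stood singly all the same. Of the 12443, 9411 had no member as their direct neighbour, and 3032 formed 1383 runs of 2 or more, the longest with 7 members over 45.7 kb of an unplaced scaffold. On placed chromosomes the longest runs held 5. One of them, chr25:12948934-12952707, spanned 3.77 kb with widths of 310 to 658 bp and held no active peak of any morph. The other, chr10:713720-718267, spanned 4.55 kb and held 1 H3K4me3 peak of Pachón and 1 of Tinaja between its members. Among runs of 4 the most compact was chr10:336331-338726, 2.40 kb, followed by chr10:25524420-25527016, 2.60 kb. The run at chr13:28379453-28384914 covered 5.46 kb and was made of wider peaks of 506 to 597 bp, and that at chr15:26709714-26716648 covered 6.94 kb with peaks of 269 to 422 bp. None of these 4 runs held an active peak of any morph. Cave H3K27me3 peaks are barred from a run by its definition, so their absence is not a result. Active peaks are barred from the members, and among runs with as many members those of the shortest span were named. The named runs thus left little room for active peaks, and the absence of active peaks there is not a result either.

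Members were spread over the placed chromosomes in near proportion to H3K27me3 regions. Their share of the regions of a chromosome ran from 7.45% on chromosome 11 to 9.23% on chromosome 13, a ratio of 1.24, and the interval held the genome share of 8.52% on 24 of 25 chromosomes. Unplaced scaffolds gave 8.55% and placed chromosomes 8.50%, or 9.41 members per Mb. The share of Pachón alone varied more, from 6.33% on chromosome 9 to 12.7% on chromosome 21, a ratio of 2.00, and that of Tinaja alone from 8.09% to 10.7%. No chromosome was thus especially rich in surface members.

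**Figure D3:**
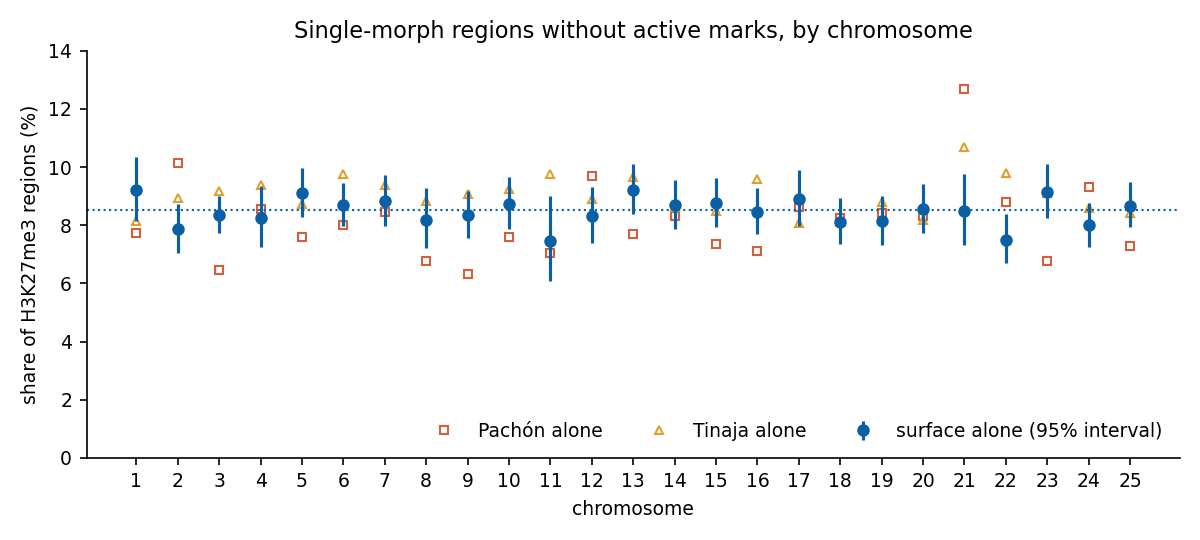
Share of the H3K27me3 regions of each placed chromosome (horizontal axis) that lie in 1 morph alone without active marks (vertical axis, %), with 95% binomial intervals for surface alone (blue points) and the genome share of surface members as a dotted line. Surface members stay between 7.45% and 9.23%, and Pachón alone (squares) reaches 12.7% on chromosome 21.

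On the scale of 100 kb, members were scattered, with a small number of richer windows. Of 9318 windows on placed chromosomes, 5159 (55.4%) held a member, with a mean of 0.939 per window, and 117 (1.26%) held 5 or more. The richest window was chr23:17600001-17700000, where 11 of 16 H3K27me3 regions were members, each 235 to 557 bp wide. In it surface had 14 H3K27me3 peaks, Pachón had 1 and Tinaja had 4. Active marks were sparse there, with 2 surface H3K27ac peaks and 3 Tinaja H3K4me3 peaks, and no other active peak.

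**Figure D4:**
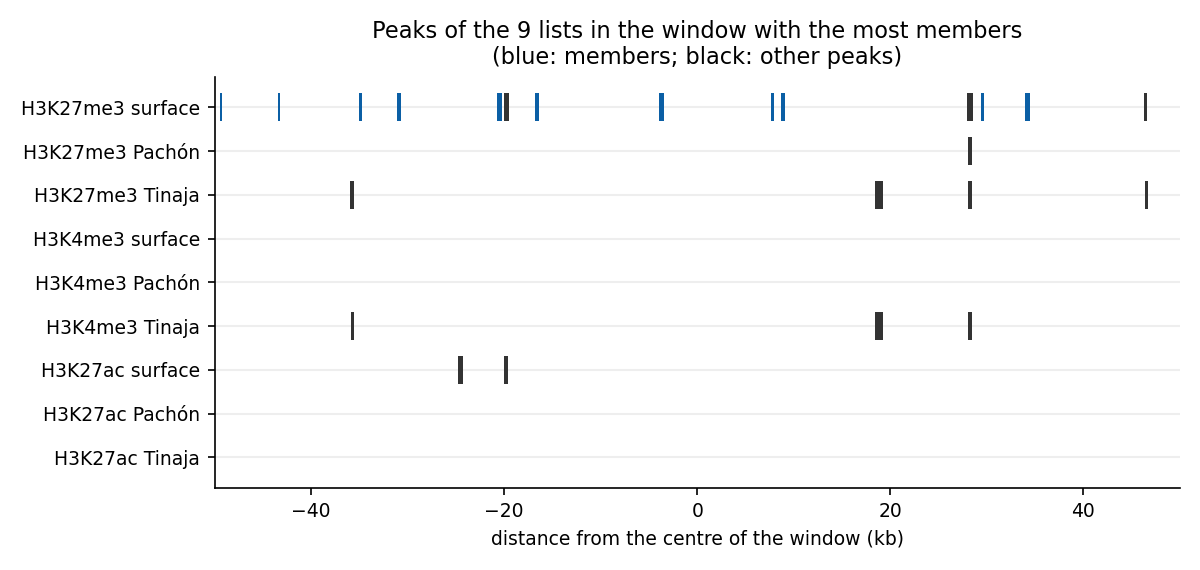
Peaks of the 9 lists (rows, by mark and morph) in the 100 kb window of chromosome 23 with the most members, by distance from the centre of the window (horizontal axis, kb), drawn to scale. The 11 members (blue) are scattered over the window in the surface H3K27me3 row, while the Pachón row holds 1 H3K27me3 peak and the Tinaja row 4.

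The other rich windows differed in what surrounded the members. The window chr24:44500001-44600000 held 9 members among 23 regions and had 22 surface H3K27me3 peaks against 9 in Pachón and 7 in Tinaja. It also held 8 H3K27ac peaks of surface, 1 of Pachón and 3 of Tinaja, so H3K27ac too was listed more often in surface there. H3K4me3 ran the other way, with 3 surface, 7 Pachón and 8 Tinaja peaks. The window chr2:33400001-33500000 held 9 members among 31 regions, chr14:7000001-7100000 held 8 among 18, and chr7:20800001-20900000 held 7 among 13. By contrast, chr15:26700001-26800000, with 8 members among 18 regions, was rich in H3K27ac in every morph, with 16 surface, 16 Pachón and 19 Tinaja peaks of that mark. In some windows with many regions of surface alone, few of those regions were members. The adjoining windows chr18:16000001-16100000 and chr18:16100001-16200000 had 13 and 14 regions of surface alone, of which 3 and 1 lacked an active mark. In chr1:16100001-16200000 these were 3 of 8. Of all H3K27me3 regions in the 3 windows, members made up 15.8%, 5.56% and 33.3%, against 8.52% in the whole series. These windows were picked for their counts and give no test.

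Measured to the same active lists, the members lay nearer to active chromatin than single-cave regions did. A surface peak of H3K4me3 or H3K27ac was found within 10 kb of 48.9% of the members (48.0 to 49.8). It was found within 10 kb of 33.1% of the regions of Pachón alone (32.3 to 34.0), 35.6% of Tinaja alone (34.8 to 36.5), 33.6% of both caves and 42.8% of all morphs. Regions that surface shared with 1 cave came nearer to the members, at 44.3% with Pachón (43.0 to 45.6) and 42.3% with Tinaja (41.1 to 43.6). The share of the members was 1.42 times the mean of the 2 single-cave sets. This ratio sets the members against lists of their own morph and the single-cave regions against lists of another morph. With each set against its own morph, the full lists gave 48.9% for the members, 46.6% for Pachón alone and 76.8% for Tinaja alone. With active lists shortened to equal length these were 48.9%, 41.2% and 47.5% (46.6 to 48.4), and the intervals of the members and Tinaja alone meet. With active peaks of any morph within 10 kb the gap was much smaller. The shares were then 84.4% for the members, 77.3% for Pachón alone, 80.3% for Tinaja alone and 84.9% for all morphs. Median distances to surface active peaks were 10365 bp for the members, 18188 bp for Pachón alone, 15861 bp for Tinaja alone and 12374 bp for all morphs. Overlap with an active mark is barred by the rule, but its distance beyond the edge of a region is not.

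With the surface lists, the members stood above the single-cave sets for both active marks and at both distances. Within 1 kb, 5.71% of the members had a surface H3K4me3 peak, against 2.30% of Pachón alone and 2.08% of Tinaja alone. For surface H3K27ac within 1 kb the shares were 3.66%, 1.56% and 1.33%. Within 10 kb they were 38.4%, 26.3% and 26.9% for H3K4me3, and 32.5%, 18.9% and 21.6% for H3K27ac. All 4 comparisons set the members against lists of their own morph and the single-cave sets against lists of another. With its own full lists, Pachón alone had H3K4me3 within 1 kb in 5.02% and H3K27ac in 2.79%. Tinaja alone, with the longest lists, had 10.4% and 4.87%, above the members. Within 10 kb these were 35.9% and 28.2% for Pachón alone and 71.4% and 46.0% for Tinaja alone. In each of the 4 comparisons with the surface lists the interval of the members did not meet that of either single-cave set. These intervals take regions as independent, and regions are not replicates of a morph, so this is no test between morphs.

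Active marks of the caves were nearer to the surface members too. A Pachón active peak lay within 10 kb of 57.9% of the members (57.1 to 58.8), but of 46.6% of the regions of Pachón alone itself (45.7 to 47.5). A Tinaja active peak lay within 10 kb of 80.7% of the members (80.0 to 81.4), and of 76.8% of the regions of Tinaja alone (76.1 to 77.5). When the active lists were shortened to equal length, the members gave 48.9%, 52.3% and 55.7% with the surface, Pachón and Tinaja lists. Pachón alone then gave 33.1%, 41.2% and 44.6%, and Tinaja alone 35.6%, 42.4% and 47.5%. The nearness of the members was thus not limited to peaks of their own morph, and the difference from the single-cave sets was largest with the surface lists. It was not particular to the members either. With active lists of equal length, regions of all morphs stood above the single-cave sets too, at 42.8%, 49.5% and 55.4%. They lay below the members with the surface and Pachón lists and near them with the Tinaja lists. With the full Tinaja lists they reached 81.8% (81.1 to 82.4), above the members, with intervals that meet. With the full lists, regions of surface and Pachón had a Pachón active peak within 10 kb in 56.5% of cases, and regions of surface and Tinaja had a Tinaja active peak in 80.9%, both with intervals that meet those of the members.

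**Figure D5:**
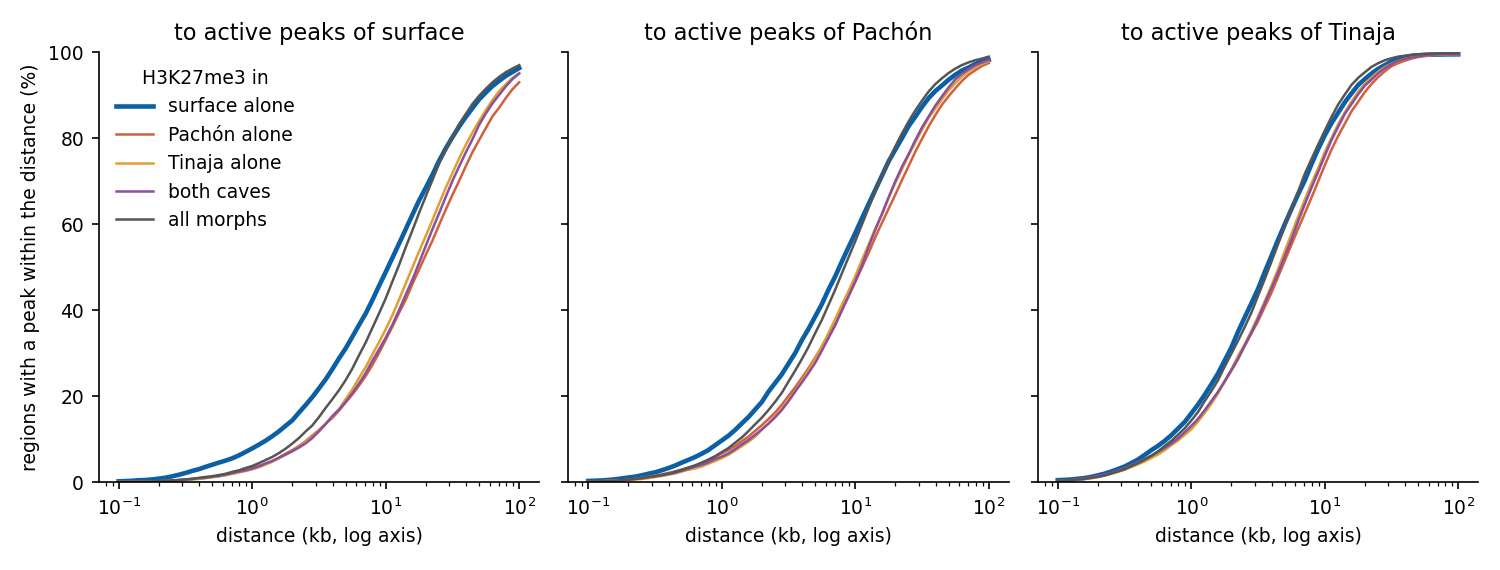
Share of H3K27me3 regions without active marks (vertical axis, %) that have an H3K4me3 or H3K27ac peak within a given distance (horizontal axis, kb, log scale), for the active lists of surface, Pachón and Tinaja (panels) and 5 sets of regions (lines). With the surface lists the members (thick blue) reach 48.9% at 10 kb and lie above the single-cave sets, and the lines close up with the longer Tinaja lists.

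The difference from the single-cave sets was present within each of 4 classes of width. Among regions of 200 to 250 bp, a surface active peak lay within 10 kb of 48.1% of the members (45.8 to 50.4), 36.4% of Pachón alone and 35.4% of Tinaja alone. At 300 to 400 bp the shares were 49.4%, 31.8% and 36.0%, and at 400 to 600 bp they were 50.1%, 29.0% and 32.5%. The members held 47.8% to 50.1% in the 4 classes, while that of Pachón alone was lower among wider regions. The regions of all morphs stood at 47.0% (45.3 to 48.7) at 300 to 400 bp, near the members, and at 42.9% (41.7 to 44.1) at 400 to 600 bp, below the interval of the members (47.9 to 52.4).

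The active regions around the members were mostly not peculiar to surface fish, which holds for active regions in general and is no trait of the members. Tinaja alone made up 50.4% of the H3K4me3 regions near a member, against 47.9% of all H3K4me3 regions. Among the 20685 H3K4me3 regions within 10 kb of a member and not on one, 4.61% were of surface alone (4.33 to 4.90), against 3.89% of all H3K4me3 regions. Around Pachón alone and Tinaja alone the shares were 3.28% and 3.36%. Among the 17014 H3K27ac regions near a member, 5.21% were of surface alone (4.88 to 5.55), against 5.44% of all H3K27ac regions, and 4.77% and 4.52% around the single-cave sets. H3K27ac regions of all 3 morphs made up 29.8% of those near a member, against 23.0% near Pachón alone, 22.7% near Tinaja alone and 35.6% of all. Surface-alone H3K4me3 was thus somewhat more frequent around the members than in the genome, surface-alone H3K27ac was not, and H3K27ac common to all morphs was more frequent around them than around single-cave H3K27me3.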

How the data were processed

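Libraries of 3 marks and of total chromatin were made from adult livers of 3 morphs, 26 in all. Per the submitters' processing notes, bcl2fastq 2.20, Bowtie2, SAMtools and MACS2 were used; settings, genome build and the handling of replicates are not stated there. Deposited were 9 peak lists from the authors, 1 per morph and mark, with positions alone: the deposited score is 0 for every peak. Depth is therefore unknown. No column of another sample was used.

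Overlap meant 1 bp or more, and distance was counted between the nearest edges. The members and all lists of regions were chosen with earlier results of these data known. Named are the 10 widest members, the 6 longest runs (ties by the shorter span) and the 6 windows of 100 kb with most members on placed chromosomes. The further windows on chromosomes 18 and 1 were chosen after their values were seen. Results were recomputed with the wider 50% of each list, lists shortened to equal length by width, peaks up to 1 kb apart merged, placed chromosomes alone, overlap of 50% of the shorter interval and active marks of the same morph. The removal of members with a cave peak within 1 kb, which left 9663, and the ratio of shares near active peaks were chosen after seeing the data. The gene table is of AstMex3_surface: on chromosome 1 its last gene ends at 134 Mb and the last listed peak at 27.0 Mb, so it was not used. Overlaps, distances and membership were checked on 40 simulated sets of lists by counting single bases, with 0 mismatches. Software was NumPy 2.4.6 and SciPy 1.17.1 under Python 3.11.15, with figures by Matplotlib 3.10.9.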

Additional observations from a re-analysis of the deposited data

How the results depend on the processing

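With the wider 50% of each list, 6661 members were left, with a median width of 464 bp; 69.5% of the regions of surface alone lacked an active mark, and the ratio to the single caves was 1.05. The next region was a member in 12.65%, a cave H3K27me3 peak lay within 1 kb of 14.1% and a surface active peak within 10 kb of 33.0%, 1.55 times the mean of the single caves. With all lists shortened to equal length, membership was drawn again, which gave 15206 members. In the Results above, only the active lists were shortened and the 12443 members were kept. With the redrawn sets the share without an active mark was 74.9%, and the next region was a member in 15.4%. Of the redrawn members, 21.5% had a cave peak within 1 kb and 50.01% a surface active peak within 10 kb, a ratio of 1.38. With peaks up to 1 kb apart merged these were 60.5% without an active mark, 10.5% with a member next and 45.2% near a surface active peak, a ratio of 1.45, and surface stood at 0.987 times the single caves in number. Surface alone outnumbered Tinaja alone in the wider 50% (6661 against 6576), with equal lists (15206 against 15086) and with active marks of the same morph, and not with the lists as deposited, so that order depended on the setting. With active marks of the same morph alone that ratio was 1.199, the median width 315 bp and the share with a cave peak within 1 kb 21.5%. Placed chromosomes alone and overlap of 50% moved no value beyond its interval (a count, beyond 1.5 times). The ratio of shares near surface active peaks stayed above 1 in the 5 settings run. The cause of these shifts was not tested. Leaving out a replicate was not possible, as each list joins its libraries. No paired analysis was possible because each morph and mark has 1 list.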

Other observations

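In the 917 windows of 1 Mb on placed chromosomes with 50 or more H3K27me3 regions, the share of surface members was nearly unrelated to that of Pachón alone (Spearman's rho -0.08), Tinaja alone (-0.08), both caves (-0.12) or all morphs (-0.07), while the shares of Pachón alone and Tinaja alone went together weakly (0.19). These shares are parts of the same total, windows share their regions' density, and the values are descriptions.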
